A study of Caenorhabditis elegans with 8 samples.

Results

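The *clec* genes encode proteins with C-type lectin-like domains, and they form one of the large gene families of *Caenorhabditis elegans*. The genes described here are the 187 entries of the deposited table of gene comparisons whose symbol begins with *clec-*, out of 46926 annotated genes in the count table. That table held 20536 genes with at least 10 counts over all libraries. Of 240 *clec* symbols in the reference name table, 53 were therefore not included. For 52 of them the total over all libraries was 0 to 8 counts, and the remaining one is a second gene that carries the symbol *clec-209* (WBGene00018910, 650 counts in total) and that the deposited table names F56A4.2. The measured levels play no part in the choice of the 187 genes beyond that minimum.

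C-type lectin-like domains take their name from vertebrate lectins that bind sugars with the help of calcium. In *C. elegans* many members of the family are predicted to be secreted, and many lack the residues that hold calcium in the vertebrate proteins. Worms have no antibodies or specialised immune cells, and their intestine and epidermis secrete lectins, lysozymes and other effectors. Different pathogens are known to induce different sets of *clec* genes, in part through the p38 kinase pathway, and loss of single members can lower or raise resistance to bacteria.

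Polyadenylated RNA of whole animals was sequenced in 4 libraries labelled smrd1Null and 4 libraries labelled Control. The smrd1Null animals carry a CRISPR-Cas9 deletion at the start of *smrd-1*, the worm counterpart of the chromatin remodeler SMARCAD1, as a single strain, and the Control animals are the wild-type strain N2. Both were grown on plates with *Escherichia coli* OP50, without a pathogen and, per the study's methods, without the tau transgene used elsewhere in that work. The stage is given as L4 in the extraction notes and the methods, and as adult in the design notes.

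Each library held between 74704022 and 78008833 counts, so depth was nearly equal. The targeted gene went against the labels. *smrd-1* had 87.6, 85.6, 88.3 and 78.8 CPM (counts scaled to a common library size) in the libraries labelled smrd1Null, against 48.9, 42.1, 50.3 and 50.3 CPM in the libraries labelled Control (log2 fold change 0.83, SE 0.0813, edgeR adjusted p = 0.00889). The counts cover the whole gene and do not show which exons were read. Below, smrd1Null and Control stand for the libraries so labelled, and all directions hold only as far as the labels do. Nothing in the labels ties a replicate to a separate culture, so p-values measure the spread between these libraries, which may be technical.

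Most of the *clec* RNA came from a few members. Levels are compared between genes only as TMM-normalised CPM per kilobase of exonic length, averaged over the 8 libraries. On that scale the median *clec* gene stood at 1.07, and the range ran between 0.0115 and 999.5. Above 10 CPM per kb were 40 members, 4 of them above 100, and 90 members stayed under 1. *clec-63* (WBGene00009394, chromosome II, bases 12895638 to 12897446, WBcel235) was the highest at 999.5 CPM per kb. It was followed by *clec-50* at 350.4, *clec-150* at 163, *clec-1* at 118, *clec-83* at 90.8 and *clec-87* at 79.3.

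*clec-63* alone supplied 31.8% to 35.2% of the *clec* counts in smrd1Null and 34.6% to 37.4% in Control. Its level was 1238, 1243, 1039.5 and 1136 CPM in smrd1Null, against 1518, 1518, 1381 and 1297 CPM in Control. The groups did not overlap (log2 fold change -0.29, SE 0.0973, unadjusted p = 0.0149), but the adjusted p from edgeR was 0.568. It was 0.0198 at the same fold change when replicates 1 and 2 were set against 3 and 4 as a covariate. That division was read from the counts and is not in the labels. With it edgeR called 5.53% of all genes, against 0.155% without it. *clec-50* had 387, 405, 308 and 334 CPM in smrd1Null, against 456, 372, 352 and 329 CPM in Control, and these ranges overlapped. *clec-150* likewise overlapped, with 163, 184, 187 and 201 CPM in smrd1Null, against 199, 172, 222 and 226 CPM in Control.

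**Figure D1:**
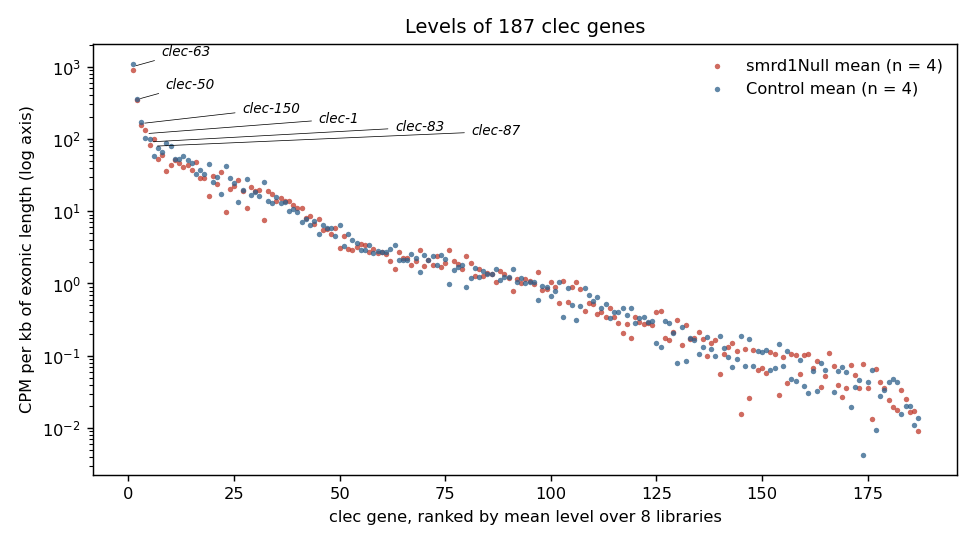
Level of each of the 187 *clec* genes, as the mean of 4 libraries per group in CPM per kilobase of exonic length on a log axis, against the gene's rank. Red points are smrd1Null and blue points Control. *clec-63*, at 999.5 averaged over the 8 libraries, stands above *clec-50* at 350.4, and the curve falls below 1 for 90 members. *clec-103* had 0 counts in Control, so it has no blue point.

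*clec-1*, the shortest of the high members at 173 codons, had 86.1, 86.4, 113.7 and 119.4 CPM in smrd1Null, against 75.9, 64.2, 91.2 and 90.0 CPM in Control (log2 fold change 0.34, SE 0.154, edgeR adjusted p = 0.646). Within each pair of replicates its smrd1Null values were above its Control values, 0.29 on the log2 scale in replicates 1 and 2 and 0.37 in replicates 3 and 4. *clec-83* went the other way in replicates 1 and 2, where the log2 fold change was -0.46, and stood at 0.04 in replicates 3 and 4. *clec-87* had the widest spread of the 6, with 53.4, 63.1, 156 and 113.5 CPM in smrd1Null, against 58.4, 33.9, 85.3 and 45.0 CPM in Control. Of its exon bases, 14.4% lie under another gene as well, *iars-2*, and the counting did not separate strands.

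Summed over the 187 members, *clec* RNA came to 3522, 3653.5, 3268.7 and 3459 CPM in smrd1Null, against 4308.5, 4053.4, 3861.9 and 3748 CPM in Control. The 4 smrd1Null sums all lay below the 4 Control sums. This was also so without *clec-63*, with 2284, 2410.2, 2229 and 2323 CPM in smrd1Null, against 2791, 2536, 2481 and 2451 CPM in Control. The mean sum was 3476 ± 160 CPM in smrd1Null and 3993 ± 245 CPM in Control (SD, n = 4 each). Of all single genes tested, 2.84% likewise had groups that did not overlap, with smrd1Null lower. The sums follow the most abundant members. Among the 140 members tested, the median log2 fold change was -0.07, with 63 positive and 77 negative. As these are whole animals, fewer cells of a type and less RNA per cell cannot be told apart.

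By its labels the comparison of smrd1Null with Control addresses what loss of *smrd-1* does to the transcriptome, though the *smrd-1* counts went against those labels. Of the 187 members, 140 passed the filter on low counts and were tested. In edgeR's quasi-likelihood test, with Benjamini-Hochberg adjustment over 16808 genes, 2 members fell and 0 rose at an adjusted p of at most 0.05. These 2 are 1.43% of the members tested, and over all genes tested 0.155% were called, 0.0892% higher and 0.0654% lower. The called genes were *clec-52* and *clec-62*.

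*clec-52*, a gene known to be induced by *Staphylococcus aureus*, showed the largest difference of any member tested. It had 8.23, 13.2, 6.47 and 10.3 CPM in smrd1Null, against 46.7, 36.7, 39.3 and 41.2 CPM in Control. The highest smrd1Null library was far below the lowest Control library. The means were 9.54 ± 2.88 CPM in smrd1Null and 41 ± 4.26 CPM in Control (SD, n = 4 each), a log2 fold change of -2.10 (SE 0.211, edgeR adjusted p = 0.00947). The log2 fold change was -1.97 in replicates 1 and 2 alone and -2.25 in replicates 3 and 4 alone. Blocking on replicate number left it called, at an adjusted p of 0.0438 from edgeR. Leaving out smrd1Null replicate 1, smrd1Null replicate 4 or Control replicate 4 ended the call, at an adjusted p of at most 0.0621.

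*clec-62* differed by less and with little spread. It had 51.2, 50.9, 50.2 and 55.8 CPM in smrd1Null, against 77.3, 71, 74.9 and 72.2 CPM in Control. The groups stood apart, with means of 52 ± 2.54 CPM in smrd1Null and 73.9 ± 2.84 CPM in Control (SD, n = 4 each). The log2 fold change was -0.51 (SE 0.0662), with an adjusted p of 0.0339 from edgeR. The call was lost with the replicate block (adjusted p = 0.0567) and on leaving out any single library (adjusted p 0.075 to 0.16, edgeR).

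The same counts in DESeq2, the tool of the study, gave 6 calls among the members, namely *clec-103* higher and *clec-125*, *clec-52*, *clec-62*, *clec-67* and *clec-72* lower. DESeq2 called 1.26% of the 19900 genes to which it gave an adjusted p. *clec-72* had 15.8, 14.8, 5.75 and 8.41 CPM in smrd1Null, against 47.6, 41.4, 29.2 and 32.7 CPM in Control. These groups did not overlap, and replicates 1 and 2 were higher than 3 and 4 in both. Its log2 fold change was -1.75 (SE 0.326), with an adjusted p of 0.160 in edgeR, 0.0438 in edgeR with the replicate block and 6.98e-05 in DESeq2.

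*clec-67*, a known target of the p38 pathway in the worm intestine, had 45.4, 38.3, 24.7 and 24.8 CPM in smrd1Null, against 144, 119.8, 54.9 and 45.3 CPM in Control. The highest smrd1Null library and the lowest Control library were nearly equal. The log2 fold change was -1.45 (SE 0.396), with an adjusted p of 0.432 in edgeR and 0.0282 in DESeq2. It was -1.67 in replicates 1 and 2 alone and -1.01 in replicates 3 and 4 alone. *clec-125* was a gene of low counts, at 0.358, 0.411, 0.347 and 0.373 CPM in smrd1Null, against 1.21, 0.703, 0.961 and 1.01 CPM in Control. Its smrd1Null values fell within a narrow band under all Control values (log2 fold change -1.38, SE 0.254, adjusted p = 0.158 in edgeR and 0.000181 in DESeq2).

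**Figure D2:**
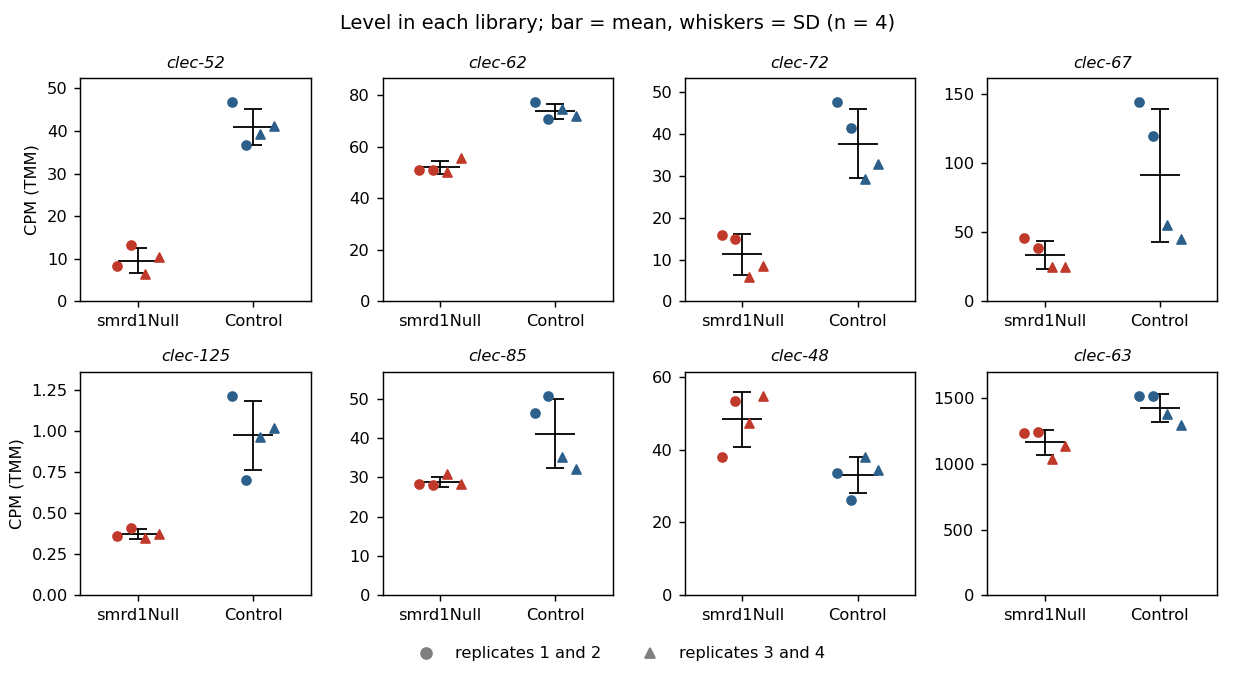
Level of 8 *clec* genes in each library, in TMM-normalised CPM on axes that start at 0. Red is smrd1Null and blue Control, circles are replicates 1 and 2, triangles replicates 3 and 4, the bar is the mean and the whiskers are the SD of 4 libraries. *clec-52* lay between 6.47 and 13.2 in smrd1Null and between 36.7 and 46.7 in Control, and *clec-67* was higher in replicates 1 and 2 than in 3 and 4 of both groups.

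Over the 140 members tested, the log2 fold change was positive for 63 and negative for 77. The median was -0.07, beside -0.01 over all genes tested, and the quartiles were -0.36 and 0.35. At an unadjusted p under 0.05 there were 27 members (19.3%), 13 higher and 14 lower, beside 7.74% of all genes (3.9% higher and 3.84% lower). A log2 fold change beyond 1 in size was seen in 21 members (15%), 11 higher and 10 lower, beside 3.74% of all genes. Of these 21, 9 were under 1 CPM per kb and 7 were above 10.

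The 4 libraries of each group did not overlap for 14 members (10%), 5 higher and 9 lower, beside 5.2% (2.36% higher and 2.84% lower) of all genes. Each of these has an exact two-sided permutation p of 0.0286, the smallest that 4 libraries against 4 can give. Apart from the genes given above, the lower ones were *clec-85*, *clec-209*, *clec-38* and *clec-34*, and the higher ones *clec-48*, *clec-56*, *clec-227*, *clec-43* and *clec-24*. Of these, only *clec-24* and *clec-85* were to be named by the rule, and the others are given because of their values. *clec-48* had 38, 53.3, 47.3 and 54.8 CPM in smrd1Null, against 33.6, 26.1, 38 and 34.4 CPM in Control (log2 fold change 0.55, SE 0.149, edgeR adjusted p = 0.422). *clec-56* differed by little, with 38.2, 36.9, 39 and 42.5 CPM in smrd1Null, against 29.9, 35.0, 34.6 and 33.7 CPM in Control (log2 fold change 0.23, SE 0.0817). *clec-34* was low, with 8 to 22 counts per library in smrd1Null and 28 to 52 in Control (log2 fold change -1.18, SE 0.381).

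**Figure D3:**
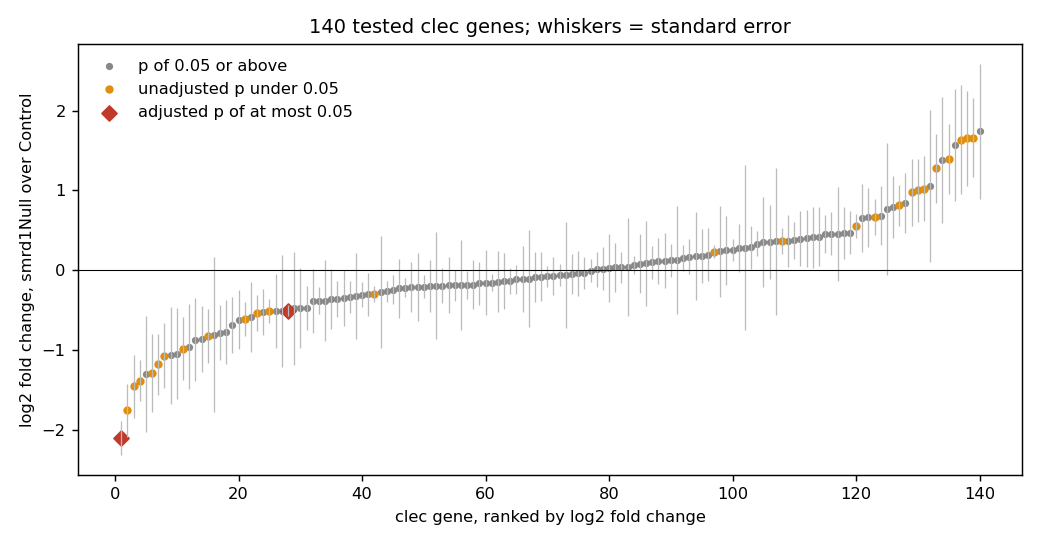
Log2 fold change of smrd1Null over Control for the 140 *clec* genes tested, ranked, with the standard error as whiskers. Red diamonds are the 2 genes with an edgeR adjusted p of at most 0.05, orange points the others with an unadjusted p under 0.05, and grey points the rest. The values run between -2.10 (*clec-52*) and 1.74 (*clec-222*), and the points at the upper end have wider whiskers than *clec-52*.

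The 5 largest positive fold changes all belonged to members under 2 CPM per kb. On all 8 libraries none was called by edgeR without a covariate or by DESeq2. In replicates 3 and 4 alone, where edgeR called 12.2% of all genes, it called *clec-97* (adjusted p = 0.026) and *clec-223* (adjusted p = 0.0298). *clec-222* and *clec-223* are neighbours on chromosome V (bases 11271351 to 11278161). *clec-222* had 0.385, 0.849, 1.34 and 0.921 CPM in smrd1Null, against 0.0269, 0.0843, 0.779 and 0.148 CPM in Control (log2 fold change 1.74, SE 0.849, edgeR adjusted p = 0.652). Without Control replicate 3 its log2 fold change was 3.29, with an adjusted p of 0.297 from edgeR. *clec-223*, a large member of 1034 codons, had 1.71, 2.03, 6.65 and 3.57 CPM in smrd1Null, against 0.820, 0.365, 2.13 and 1.11 CPM in Control (log2 fold change 1.65, SE 0.595). In both genes Control replicate 3 was the highest Control library and overlapped with smrd1Null.

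*clec-24* had 29, 15, 30 and 23 counts in smrd1Null, against 4, 14, 4 and 8 counts in Control, and the closest libraries differed by 1 count (log2 fold change 1.66, SE 0.497, edgeR adjusted p = 0.483). *clec-126* had 22, 12, 30 and 51 counts in smrd1Null, against 10, 4, 20 and 2 in Control (log2 fold change 1.64, SE 0.685). *clec-97* had 49, 68, 301 and 182 counts in smrd1Null, against 43, 10, 93 and 55 in Control (log2 fold change 1.57, SE 0.700), and 17.8% of its exon bases are shared with *clec-98*.

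*clec-97* and *clec-223* belonged to 13 members tested (9.29%) that were highest in smrd1Null replicate 3 and lowest in Control replicate 2 of all 8 libraries. Over all genes tested, 12.4% had that order. *clec-87*, *clec-88* and *clec-91* were the most abundant of the 13. *clec-88* had 21.2, 27.2, 71.3 and 48.6 CPM in smrd1Null, against 21.6, 13.1, 29.9 and 19.3 CPM in Control (log2 fold change 1, SE 0.396, edgeR adjusted p = 0.614). *clec-91* had 12.3, 15.3, 38.3 and 26.6 CPM in smrd1Null, against 12, 6.74, 17.6 and 9.17 CPM in Control (log2 fold change 1.02, SE 0.407). *clec-88* and *clec-91* were chosen after their values were seen.

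That order of libraries was taken from the sum of the yolk protein genes *vit-1* to *vit-6*, so this sum matches it by definition. With a smrd1Null library highest and a Control library lowest, the order also favours positive log2 fold changes. The summed level of the yolk protein genes was 6583, 8549, 18350 and 12310 CPM in smrd1Null, against 5639, 2249, 6596 and 3131 CPM in Control. All 6 of 6 were higher with an unadjusted p under 0.05 in edgeR, beside 3.9% of all genes. The median was 1.60 on the log2 scale, the smallest adjusted p from edgeR was 0.449, and DESeq2 called 3. The summed level of 5 oocyte genes lay between 266 and 692 CPM in smrd1Null and between 166 and 398 CPM in Control, with positive fold changes for 5 of 5. That of 7 sperm genes lay between 178 and 457 CPM in smrd1Null and between 139 and 313 CPM in Control, positive for 7 of 7. Over all genes tested, 51.4% of fold changes were negative. No marker of these 3 lists was at 0 in any library, and their part in the *clec* results was not tested.

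Members with a described part in host defence were treated as one list of 15, of which 14 were tested. In edgeR only *clec-52* of the 14 was called, beside 0.155% of all genes. Of the 14 log2 fold changes 12 were negative, beside 51.4% over all genes, and positive values were found for *clec-60* and *clec-86*. The list was chosen with earlier results of these data known, so this tally is no independent support. *clec-85*, a widely used reporter of p38 signalling, had 28.4, 28.1, 30.8 and 28.3 CPM in smrd1Null, against 46.4, 50.7, 35.2 and 32.2 CPM in Control. The groups did not overlap (log2 fold change -0.51, SE 0.147, edgeR adjusted p = 0.454). The log2 fold change was -0.79 in replicates 1 and 2 alone and -0.18 in replicates 3 and 4 alone. Of its exon bases 27.7% also belong to Y54G2A.40, and how reads on the shared bases were assigned was not examined.

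*clec-4*, *clec-41* and *clec-42* are known from work on *Bacillus thuringiensis*. *clec-4* had 27.9, 19.1, 9.20 and 7.70 CPM in smrd1Null, against 60.8, 74.6, 11.8 and 9.61 CPM in Control (log2 fold change -1.30, SE 0.721, edgeR adjusted p = 0.675). Without Control replicate 2 its log2 fold change was -0.78. Replicates 1 and 2 of both groups were above replicates 3 and 4, and the log2 fold change was -1.54 in replicates 1 and 2 alone and -0.33 in replicates 3 and 4 alone. *clec-41* had 113.3, 93.9, 131 and 132 CPM in smrd1Null, against 125.3, 164, 138 and 137 CPM in Control (log2 fold change -0.26, SE 0.129). *clec-42* had 2.48, 1.51, 0.925 and 0.672 CPM in smrd1Null, against 2.12, 3.43, 2.65 and 2.81 CPM in Control (log2 fold change -0.98, SE 0.394, edgeR adjusted p = 0.621). Its overlap between the groups came from smrd1Null replicate 1 alone.

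*clec-60*, *clec-70* and *clec-71* are, like *clec-52*, known to be induced by *S. aureus*. *clec-60* had 1.07, 1.48, 1.46 and 1.84 CPM in smrd1Null, against 0.376, 0.590, 1.45 and 1.29 CPM in Control (log2 fold change 0.66, SE 0.426). *clec-70* was read 2, 6, 28 and 30 times in smrd1Null and 2, 10, 50 and 54 times in Control, so that its level followed the replicate number more than the group. *clec-71* had 0.261, 0.192, 0.193 and 0.324 CPM in smrd1Null, against 0.578, 0.351, 0.286 and 0.457 CPM in Control (log2 fold change -0.78, SE 0.346, unadjusted p = 0.0512). The 4 *S. aureus* genes thus gave 3 negative log2 fold changes and 1 positive, with only *clec-52* called.

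*clec-39* and *clec-49* are known to be needed for resistance to *Serratia marcescens*. *clec-39* was not tested for low counts, with 0, 6, 4 and 6 counts in smrd1Null and 24, 2, 12 and 6 in Control. *clec-49* had 24, 26.9, 20.04 and 24 CPM in smrd1Null, against 35.0, 26.1, 21.6 and 19.8 CPM in Control (log2 fold change -0.11, SE 0.184), a difference well within the spread. The remaining 4 genes of the list, *clec-7*, *clec-65*, *clec-82* and *clec-86*, had log2 fold changes of -0.05, -0.47, -0.23 and 0.03. Their adjusted p-values from edgeR were between 0.683 and 0.981, and their groups overlapped.

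The family is spread over all 6 chromosomes, with 19 members on I, 38 on II, 12 on III, 46 on IV, 69 on V and 3 on X. All 187 are annotated as protein coding, with a median coding length of 344 codons (153 to 3514) and a median of 6 exons (2 to 28). With neighbours joined where their starts lie within 20000 bases, 115 members fell into 33 runs, 12 of them with 4 members or more. Neighbours in a run often resemble each other in sequence, and reads that fit several places were not counted, so counts of close copies may be too low.

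A run on chromosome II (bases 12893062 to 12906644) holds *clec-62*, *clec-63*, *clec-64*, *clec-65* and *clec-66*, among them the most abundant member and one of the 2 called. All 5 had negative log2 fold changes, at -0.51, -0.29, -0.30, -0.47 and -0.87 in genome order. They differed in their libraries. *clec-65* had 80.9, 66.2, 51.4 and 49.6 CPM in smrd1Null, against 112.98, 114.26, 60.2 and 56.3 CPM in Control (SE 0.275). *clec-66* had 78.6, 73.8, 34.7 and 38.1 CPM in smrd1Null, against 161, 163, 46.5 and 40.7 CPM in Control (SE 0.518). In both, replicates 1 and 2 stood above 3 and 4 in each group, whereas *clec-62* had no such division.

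A run of 12 on chromosome IV (bases 3922165 to 4014235) holds *clec-67* and *clec-72* as well as *clec-70* and *clec-71*. Of its 10 members tested, 6 had negative and 4 positive log2 fold changes, between -1.75 and 0.47. The 5 members tested from *clec-67* to *clec-72* were all negative, and the next gene, *clec-73*, was at 0.28 (SE 0.303). *clec-73* had 25.6, 26.9, 45.3 and 41.6 CPM in smrd1Null, against 22.6, 16.7, 38.6 and 37.1 CPM in Control, with replicates 3 and 4 higher in both groups. *clec-78*, the last and by far the longest, with 3514 codons, had a log2 fold change of 0.85 in replicates 1 and 2 alone and -0.83 in replicates 3 and 4 alone.

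In the run of 5 members that ends with *clec-85*, also on IV (bases 2823746 to 2855456), *clec-80* was at 0.46 (SE 0.268) and the other 4 were between -0.51 and -0.19. The longest run, with 13 members on chromosome V (bases 16839121 to 16869840), had 11 tested, 6 positive and 5 negative, between -0.82 (*clec-27*) and 1.66 (*clec-24*). Every member of that run stayed under 2 CPM per kb. The run of *clec-57*, *clec-227*, *clec-56*, *clec-54* and *clec-55* on V (bases 14469231 to 14482317) gave 4 positive values and 1 negative, none beyond 0.37 in size.

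Direct neighbours could differ. *clec-52* lies beside *clec-51* on chromosome IV (bases 8161953 to 8168760), and both encode 308 codons. *clec-51* had 39, 29.96, 24.7 and 25.1 CPM in smrd1Null, against 38.5, 39, 28.2 and 29.1 CPM in Control (log2 fold change -0.18, SE 0.178), so its groups overlapped where those of *clec-52* stood far apart. *clec-125* and *clec-126* are neighbours on chromosome II (bases 3516003 to 3520712) with fitted values of opposite sign, -1.38 and 1.64. *clec-49* and *clec-50* (V, bases 19748961 to 19755368), with 321 codons each, differed about as little as each other between the groups, at -0.11 and -0.07.

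**Figure D4:**
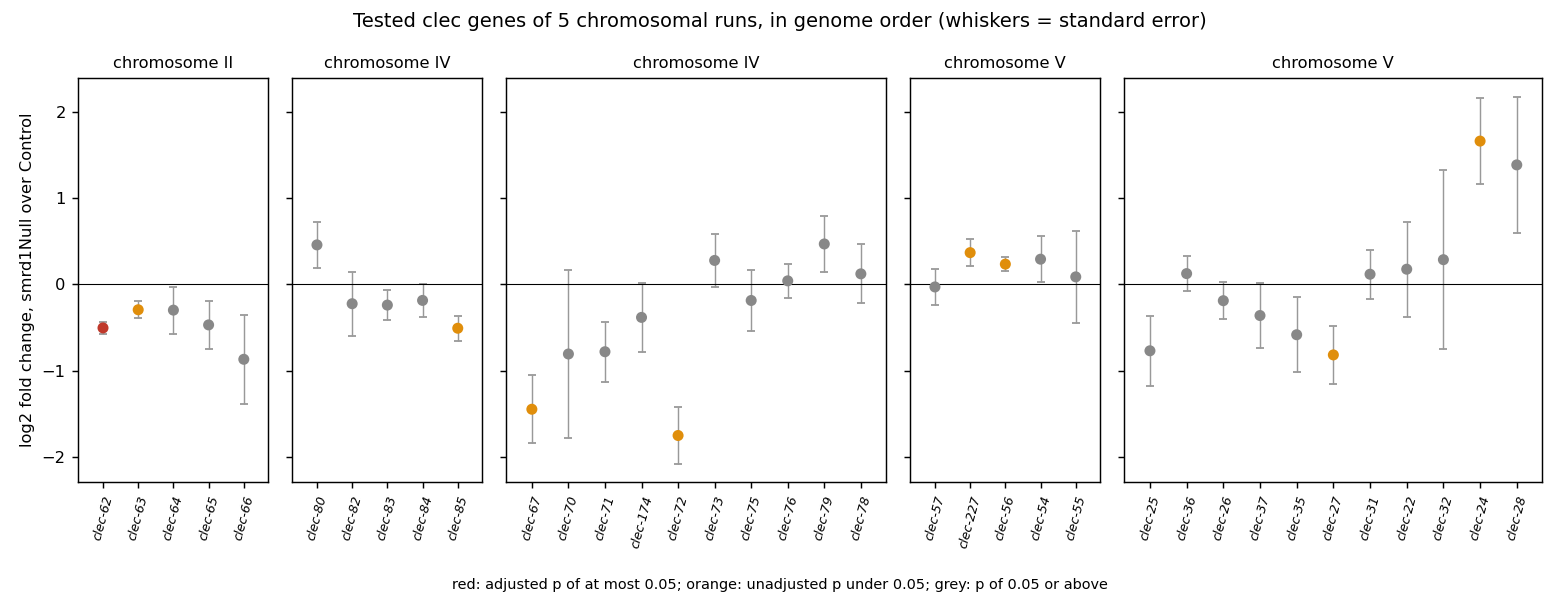
Log2 fold change of smrd1Null over Control for the tested members of 5 chromosomal runs in genome order, with the standard error as whiskers. Colours mark an edgeR adjusted p of at most 0.05 (red), an unadjusted p under 0.05 (orange) and the rest (grey). All 5 points of the first run lie below 0 (-0.87 to -0.29), while the longest run has 6 points above 0 and 5 below.

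Replicates 1 and 2 differed from replicates 3 and 4 in both groups for many members. This division was read from the counts by an earlier analysis and is no condition given in the labels. All 4 libraries of replicates 1 and 2 were above all 4 of replicates 3 and 4 for 19 members tested (13.6%), beside 16.7% of all genes. They were all below for 30 members (21.4%), beside 16.3% of all genes. *clec-4* was 4.76 times and *clec-66* 2.98 times higher in replicates 1 and 2. *clec-70* was 7.40 times, *clec-61* 6.94 times and *clec-247* 3.45 times higher in replicates 3 and 4.

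*clec-265* on the X chromosome, chosen after its values were seen, had 51.7, 45.9, 25.7 and 25.8 CPM in smrd1Null, against 136, 146, 43.1 and 38.6 CPM in Control (log2 fold change -1.29, SE 0.485, edgeR adjusted p = 0.598). With the division as a covariate, its adjusted p from edgeR was 0.0172. In that fit 16 members (11.4%) were called, 5 higher and 11 lower, beside 5.53% of all genes. The higher ones were *clec-1* (adjusted p = 0.0284 from edgeR), *clec-223* (0.0318), *clec-48*, *clec-79* and *clec-123*. The lower ones were *clec-52*, *clec-62*, *clec-63*, *clec-66* (0.0466), *clec-67* (0.00515), *clec-72*, *clec-125* (0.0286), *clec-173*, *clec-230*, *clec-247* and *clec-265*. *clec-180*, also chosen after its values were seen, changed sign with the division. It had 197, 259, 87.6 and 140.1 CPM in smrd1Null, against 136, 95.6, 234 and 294 CPM in Control, a log2 fold change of 0.96 in replicates 1 and 2 alone and -1.21 in replicates 3 and 4 alone.

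Summed markers of other tissues also differed between replicates 1 and 2 and replicates 3 and 4, though not all in the same direction. Those of 6 intestinal genes were 2049, 2048, 1140 and 1234 CPM in smrd1Null, against 2609, 2522, 1399 and 1335 CPM in Control. *act-5* and *ifb-2* made up most of this sum. *elt-7*, *ges-1* and *mtl-2* did not have the division in both groups, and *mtl-2* was higher in replicates 3 and 4 of smrd1Null (24, 30.8, 40.7 and 45.1 CPM). Those of 3 body wall muscle genes were 9299, 8536, 4755 and 4515 CPM in smrd1Null, against 8946, 9477, 6105 and 5861 CPM in Control. The sum of 5 hypodermal genes was 1869, 2294, 2592 and 2629 CPM in smrd1Null, against 1218, 918, 2432 and 2622 CPM in Control. This sum was lower in replicates 1 and 2. In smrd1Null, however, *dpy-7* (233, 265.5, 55.9 and 97.6 CPM) and *bli-1* (667, 885, 375 and 554 CPM) were higher there. The sum of 4 neuronal genes was 177, 175, 158 and 170 CPM in smrd1Null, against 181, 184, 167 and 171 CPM in Control. It was higher in replicates 1 and 2 of both groups, by little. None of these 18 markers was at 0 in any library or called by edgeR. Their part in the *clec* results was not tested.

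**Figure D5:**
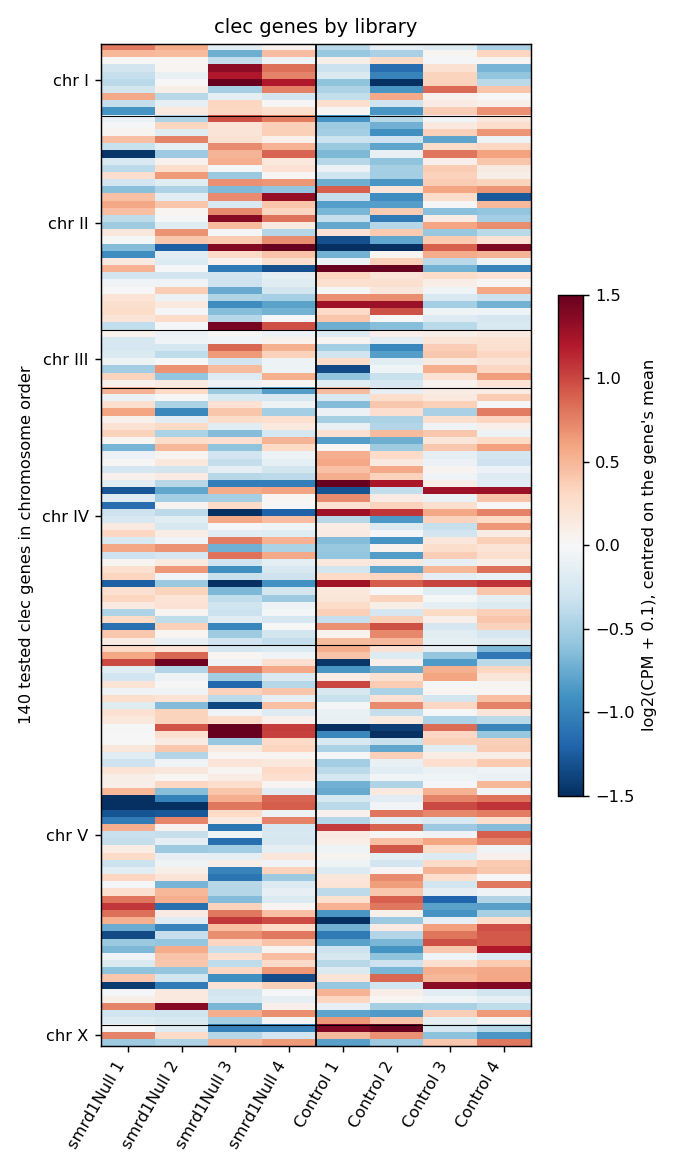
Level of the 140 *clec* genes tested in each of the 8 libraries, as log2(CPM + 0.1) centred on the gene's mean, with genes in chromosome order and colours limited to -1.5 (blue) and 1.5 (red). The 4 columns left of the line are smrd1Null and the 4 right of it Control. Blocks that change colour between replicates 2 and 3 of a group belong to genes such as the 19 members above and the 30 members below in replicates 1 and 2.

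The 47 members that were not tested had between 0.0115 and 0.195 CPM per kb. Their groups did not overlap for 2 of them. *clec-103* (WBGene00012036, chromosome I) had 4, 6, 10 and 6 counts in smrd1Null and 0 counts in each of the 4 Control libraries. If counts were independent, a count of 0 would allow up to 3 counts, or 0.0371 to 0.0422 CPM in a Control library. Mates were counted singly, so both mates of a fragment can add a count, and the true limit is higher. The smrd1Null levels were 0.0550, 0.0821, 0.128 and 0.0747 CPM, and whether all of them lie above that limit is not known. DESeq2 gave *clec-103* an adjusted p of 0.0187. *clec-108* had 0, 1, 2 and 2 counts in smrd1Null and 2, 14, 8 and 7 in Control, with Control replicate 1 lowest (DESeq2 adjusted p = 0.289). In CPM its highest smrd1Null value, 0.0257, was just under 0.0269 in that Control library.

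The regulators that act above *clec* genes in infection were examined as lists chosen with earlier results of these data known. All genes of a list share the same 8 libraries, so their signs are not independent of each other. Of 10 genes of the p38 pathway, which runs from the adaptor TIR-1 through the kinases NSY-1, SEK-1 and PMK-1 to the factor ATF-7, 0 were called, 9 had negative log2 fold changes and the median was -0.19. *tir-1* was at -0.40 (SE 0.146) and *vhp-1*, the phosphatase that restrains PMK-1, at -0.19 (SE 0.0684), both with an unadjusted p under 0.05. *pmk-1* was at -0.23 and *atf-7* at 0.04. Among 15 other regulators, which include the intestinal factor *elt-2* and the DBL-1 pathway, 0 were called and all 15 values were negative, between -0.76 (*egl-5*) and -0.005, with a median of -0.25. Over all genes tested, 51.4% of values were negative.

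Of 14 infection-response genes outside the family, 11 were tested, 0 were called by edgeR and 9 had negative values (median -0.34). *dod-22* had 8.61, 6.82, 8.40 and 7.40 CPM in smrd1Null, against 34.3, 23.6, 14.2 and 15.6 CPM in Control (log2 fold change -1.49, SE 0.275, edgeR adjusted p = 0.158), and it was the 1 gene of the list that DESeq2 called. *irg-5* was at -1.25 (SE 0.431). Of the 12 galectins, the worm's other large lectin family, 0 were called, 10 had negative values and the median was -0.15. *lec-9*, *lec-10* and *lec-11* had an unadjusted p under 0.05, at -0.62, -0.51 and -0.51. Across the 48 tested genes of these lists, edgeR called 0, and 10 had an unadjusted p under 0.05, beside 7.74% of all genes tested. These lists too were chosen with earlier results known.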

How the data were processed

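Libraries of polyadenylated RNA were grouped by their titles into smrd1Null (n = 4) and Control (n = 4). The authors aligned paired reads to WBcel235 with STAR and deposited whole-number counts per gene from featureCounts 2.0.1 (annotation release 112, per the file header), without strand, with mates counted singly and multi-mapping reads left out. In each library, 60.5% to 63.3% of genes with at least 100 counts had an even count. The deposited table of comparisons was used for gene symbols only. Its DESeq2 fold changes and p-values hold the study's own findings and were not used.

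Counts were fitted as deposited with edgeR 4.0.16 (R 4.3.3, TMM, filterByExpr, quasi-likelihood test, 16808 genes, adjusted p at most 0.05), with DESeq2 1.42.0 as an alternative. Fold changes are smrd1Null over Control. The standard error is the fold change over the root of F, and CPM means TMM-normalised counts scaled to a common library size. Exact permutation tests ran over 70 arrangements of log2(CPM + 1). Gene positions came from Ensembl release 115. The members and lists were chosen with earlier results of these data known.

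The named members were those called by either tool, the 6 highest per kb, the 5 largest and 5 smallest fold changes, 15 with a described part in defence, and untested members whose groups did not overlap, 31 in all. Other members named in the text were chosen after their values were seen. Same-numbered libraries deviated together, with correlations of 0.357, 0.221, 0.489 and 0.39 for replicates 1 to 4. Differently numbered libraries within replicates 1 and 2 or within 3 and 4 correlated at 0.255 to 0.516, and those across the division at -0.565 to -0.188, so the values follow the division as much as the number. The labels do not state a pairing. Alternatives were other normalization, filters, tool, threshold, the block, the division of replicates and each library left out. No pair of libraries differed by as little as sampling noise. Counts of 0 are limited by counting error only.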

Additional observations from a re-analysis of the deposited data

Results flagged for a closer look

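Each named gene and the summed *clec* level were examined in each group, where values varied, for a library that stood far from the other 3. Of 63 sets of 4 values, 2 passed Dixon's limit for the gap to the nearest value over the whole range, and chance alone marks about 1 in 20 sets. Control replicate 3 had 0.779 CPM of *clec-222*, against 0.0269 to 0.148 CPM in the other Control libraries (ratio 0.839). smrd1Null replicate 3 had 30.8 CPM of *clec-85*, against 28.1 to 28.4 CPM in the other smrd1Null libraries (ratio 0.89), a gap that is small beside the level itself.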

How the results depend on the processing

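edgeR called 0 *clec* genes higher and 2 lower. The numbers were 1 higher and 5 lower in DESeq2 with or without independent filtering, 1 lower without a filter on low counts, 5 higher and 11 lower with the division of replicates as a covariate, 1 and 8 in replicates 1 and 2 alone, and 9 and 14 in replicates 3 and 4 alone. The called members were 6.47% of those tested in replicates 1 and 2 alone, beside 1.62% of all genes, and 15.8% in replicates 3 and 4 alone, beside 12.2% of all genes. Without a filter on low counts 0.535% of members were called, beside 0.0988% of all genes. In DESeq2 without independent filtering these shares were 3.21% and 0.893%. Leaving out 1 library gave 0 higher and 0 to 1 lower, 0 to 0.699% of members, beside 0.041% to 0.0821% of all genes. The pairing by replicate number, used as a block, gave 0 higher and 2 lower, *clec-52* and *clec-72* in place of *clec-62* (26 genes called in all, as without the block), and changed no other call among the named genes.

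The median log2 fold change of -0.07 became 0.065 in replicates 1 and 2 alone and -0.15 in replicates 3 and 4 alone, and ranged between -0.10 and 0.04 on leaving out 1 library. The count of members whose groups did not overlap, 14, became 17 to 24 when 1 library was left out, which gives fewer values to overlap. The share over all genes was not counted in those settings. Sign changes in the named genes were 0.26 for *clec-7* and 0.25 for *clec-82* in replicates 1 and 2 alone, and 0.042 for *clec-83*, 0.10 for *clec-49* and -0.027 for *clec-86* in replicates 3 and 4 alone. With 1 library left out, the ranges that crossed 0 were -0.14 to 0.030 for *clec-50*, -0.16 to 0.12 for *clec-7*, -0.22 to 0.076 for *clec-49* and -0.19 to 0.36 for *clec-86*. Other values moved by over 1.5 times to 0.40 for *clec-60* without Control replicate 1, -0.31 or -0.30 for *clec-65* without Control replicate 1 or 2, 0.46 for *clec-87* and 0.98 for *clec-97* without smrd1Null replicate 3, and between -1.24 and -0.36 for *clec-70*. So did *clec-83*, to -0.076 without Control replicate 1, *clec-150*, to -0.099 without smrd1Null replicate 1, and *clec-41*, to -0.17 without smrd1Null replicate 2. *clec-82* ranged between -0.47 and -0.044, and the moves of *clec-4* and *clec-222* are given above. The causes were not tested. Depth limits the 47 members that were not tested, whose totals over the 8 libraries were 10 to 93 counts.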
